A study of Mus musculus with 6 samples.

Results

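The 10 genes described here encode ion channels of the transient receptor potential (TRP) family that have been linked to temperature, irritants, magnesium or calcium: Trpm8, Trpa1, Trpm2, Trpm4, Trpm6, Trpm7, Trpv1, Trpv2, Trpv4 and Trpc1. They were taken by name from the deposited transcript table, in which they make up 10 of 55267 genes and 65 of 142604 transcripts, and the values of a gene's transcripts were added. The libraries were made from intestine of mice that received 1 ml of water into the stomach once a day for 14 days. Cold water mice (n = 3 libraries) got it at 0 to 4 °C, at 8 am. Control mice (n = 3 libraries) got it at 20 to 25 °C, at 9 am, so water temperature and hour of dosing cannot be told apart. All mice were kept at 22 °C, and no strain, sex, age or genotype is given. The labels do not say that each library came from a separate animal, so p-values measure the spread between these libraries, which may be technical.

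TRP channels are cation channels that open in response to temperature, chemicals, stretch, lipids or calcium inside the cell. Trpm8, the receptor for cooling and menthol, and Trpa1, a receptor for irritants that has also been linked to painful cold, are best known from sensory neurons. In the gut wall Trpa1 is also known from enterochromaffin cells, which release serotonin. Trpv1, Trpv2, Trpv4, Trpm2 and Trpm4 have been linked to warmth or heat, whereas Trpm6 and Trpm7 are channels fused to a kinase and are known first for carrying magnesium and zinc.

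The libraries held 72690433 to 78668871 estimated counts. A fragment was worth 3.75 to 3.77 of these, so the totals stand for 19358304 to 20950432 fragments. Proximal jejunum is named in the sample labels and colon in the design text. The 10 markers of small intestinal enterocytes summed to 32860 to 51360 FPKM (fragment counts scaled by transcript length and by sequencing depth) in the cold water group and 30580 to 42540 FPKM in controls. The 8 colonocyte markers summed to 233 to 414 FPKM and 173 to 217 FPKM, without overlap between the groups, as for 9.44% of single tested genes. Most of that sum came from Ang4 (mean 172 FPKM), which Paneth cells of the small intestine also make, and Mettl7b (47.9 FPKM), and the sodium channel subunit Scnn1g was at 0 in all libraries. Of these markers 4 were tested singly, 2 higher and 2 lower in cold water. Their median log2 difference was -0.0095, and 0 passed (lowest edgeR adjusted p = 0.437). Cold water 1 stood apart by its immune cell markers. The 9 B cell and plasma cell markers summed to 719 FPKM there and 168 to 246 FPKM in the other 5 libraries, and the 10 macrophage markers to 208 FPKM against 49.8 to 79.1 FPKM.

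Of the 10 genes, 3 had a mean of at least 1 FPKM in the 6 libraries together: Trpm4 at 40.7 ± 9.11 FPKM (SD, n = 6), Trpm7 at 5.40 ± 1.62 FPKM and Trpv2 at 1.43 ± 1.05 FPKM. Another 6 had counts but lay below that level, in the order Trpa1 (0.659 ± 0.168 FPKM), Trpc1 (0.600 ± 0.402 FPKM), Trpm2 (0.563 ± 0.429 FPKM), Trpv4 (0.342 ± 0.124 FPKM), Trpm6 (0.0732 ± 0.0387 FPKM) and Trpv1 (0.0513 ± 0.0499 FPKM). Trpm8 had a count of 0 in every library. Trpm4 was the one member that is abundant here, at rank 1740 of all genes by mean FPKM. Neighbours in this order were compared within libraries by an exact two-sided sign-flip permutation test on log2(FPKM + 0.1), in which 6 libraries cannot give a p below 0.03125. Trpm4 stood above Trpm7, Trpm7 above Trpv2 and Trpv4 above Trpm6 in 6 of 6 libraries. Each of these steps had an exact p = 0.03125 and an adjusted p = 0.0938 over the 9 pairs, so none passed 0.05. The order was itself taken from the same values. With that smallest p, a pair can pass 0.05 after adjustment only where most of the 9 pairs reach it together. The test therefore cannot decide whether these steps hold. The mean level of the higher gene was 7.53, 3.77 and 4.67 times that of the lower. The other 6 pairs had adjusted p-values of 0.281 to 0.906 by the same exact permutation test. Neighbours among Trpv2, Trpa1, Trpc1, Trpm2 and Trpv4 stood in this order in only 3 or 4 of 6 libraries. For these pairs too the test cannot decide, for the same reason. Genes further apart in the order were not compared.

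**Figure D1:**
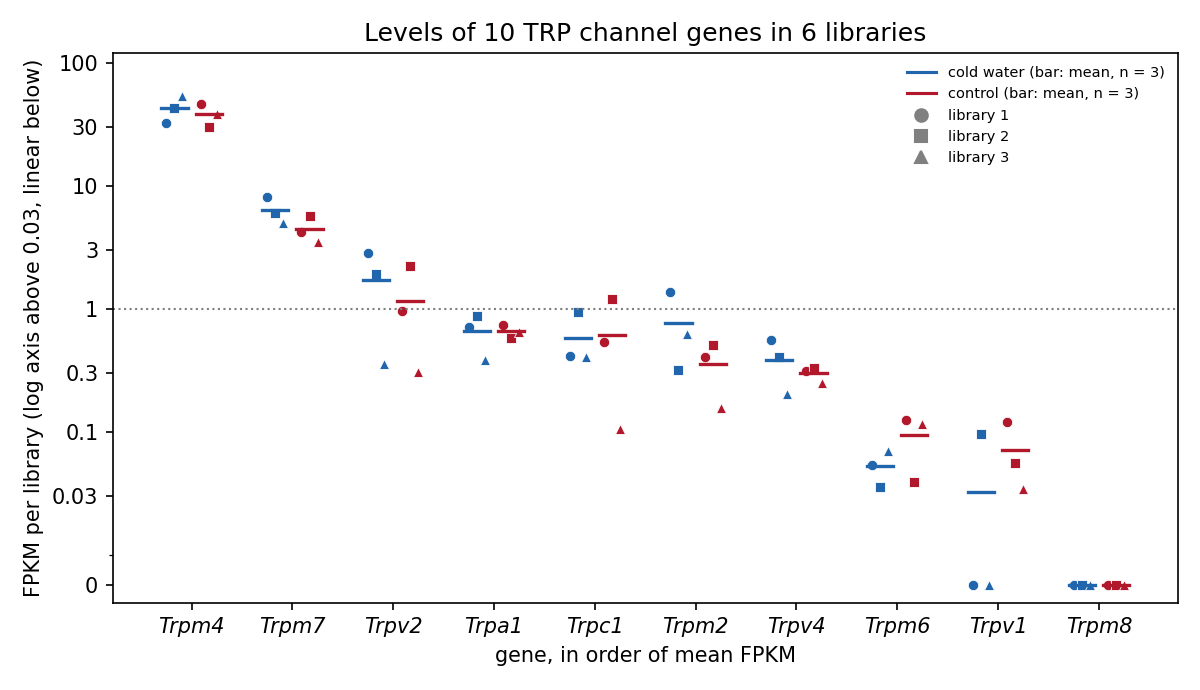
FPKM of each TRP gene (vertical axis, logarithmic above 0.03 and linear below) in the 3 cold water (blue) and 3 control (red) libraries, with bars at the group means and a dotted line at 1 FPKM. Trpm4, Trpm7 and Trpv2 have means above the line, Trpm8 is at 0 throughout, and the points of the groups overlap for every gene with counts.

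No TRP gene passed a test of cold water against control. The 3 genes that reached 1 FPKM were tested among 12939 genes by the quasi-likelihood test of edgeR after Benjamini-Hochberg adjustment, which called 0.0386% of all genes, and 0 of these 3 passed. Their unadjusted p-values were 0.291, 0.178 and 0.515 for Trpm4, Trpm7 and Trpv2 (edgeR), and DESeq2 and limma also called 0 of the 3. The groups' FPKM values overlapped for 9 of the 9 members with counts, where 9.44% of the tested genes, and 7.29% of all genes with a count, showed no overlap. Mean FPKM was higher in cold water for 6 members and lower for 3. For Trpa1 and Trpc1 that direction was opposite to the sign of the fitted log2 difference and turned when 1 library was left out, with differences of -0.11 to 0.14 FPKM and -0.29 to 0.26 FPKM. By the sign of the edgeR log2 difference, 54.2% of all tested genes were higher in cold water, and the median log2 difference was 0.029. That share is not in mean FPKM, and its genes do not include the 6 members with counts below 1 FPKM.

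**Figure D2:**
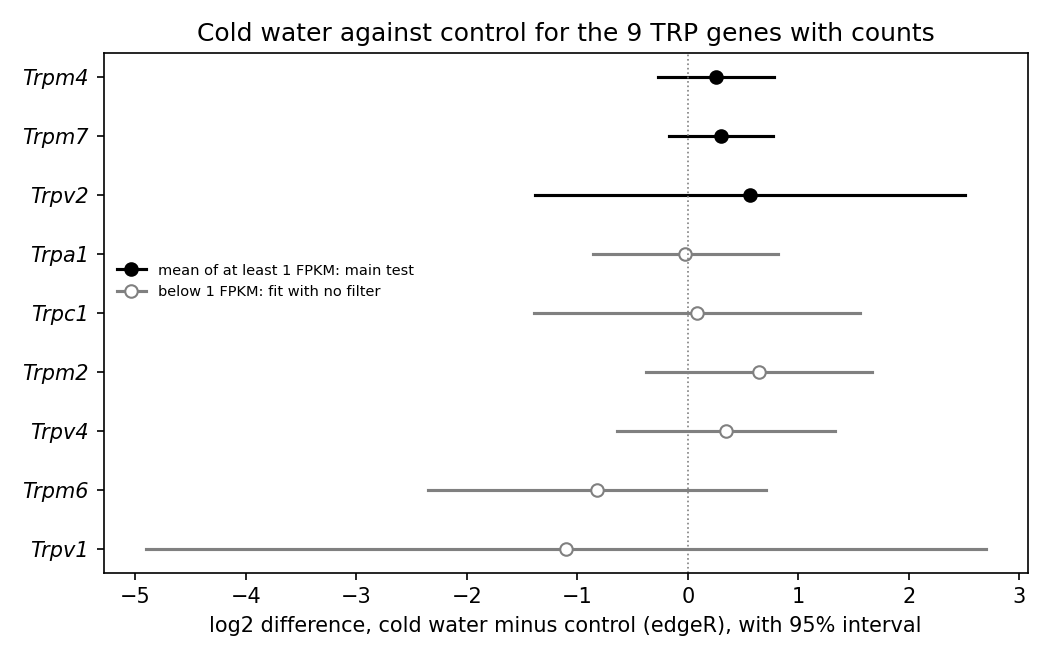
Log2 difference, cold water minus control, from edgeR for the 9 TRP genes with counts, with 95% intervals (n = 3 and 3 libraries). Filled points are the genes that reached 1 FPKM and open points the genes below it, taken from a fit with no filter; every interval includes 0.

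Trpm4 encodes a channel that calcium inside the cell opens and that lets sodium in, which depolarises the cell. It lies on the minus strand at chr7:45302632-45333780 (GRCm38). Its level was 32.1, 43.1 and 54.1 FPKM in cold water 1 to 3 and 46.6, 30.0 and 38.3 FPKM in control 1 to 3. The highest value was in cold water 3 and the lowest in control 2, and the other libraries of the groups were interleaved. The scaled count was 109 ± 26.2 CPM (counts relative to a normalised library size; SD, n = 3) in the cold water group and 91.5 ± 16.8 CPM in controls. The log2 difference was 0.25 with a standard error of 0.22 (edgeR adjusted p = 0.908), and its 95% interval ran from 0.827-fold to 1.72-fold. Between 1529 and 2397 fragments per library stood behind these values. Without cold water 3 the log2 difference was 0.0066, and without control 2 it was 0.11.

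Much of the FPKM of Trpm4 came from a short transcript that encodes no protein. ENSMUST00000210639, a retained-intron transcript of 625 bases, had a mean of 21.1 ± 7.08 FPKM (SD, n = 6), above the 14.1 ± 5.18 FPKM of the coding transcript ENSMUST00000042194 with 25 exons. Because FPKM divides by length, retained-intron transcripts made up 41.2 to 60.3% of the gene's FPKM but 13.9 to 23.7% of its estimated counts. Coding transcripts alone gave 17.3, 15.2 and 19.7 FPKM in cold water 1 to 3 and 18.8, 13.6 and 14.4 FPKM in control 1 to 3, again with overlap. ENSMUST00000210639 starts inside an intron of the coding transcript. The first intronic stretch that it keeps is shown because reads over it separate this transcript from the spliced messenger RNA. The sequence is read from the GENCODE M21 transcripts on GRCm38, 5′ to 3′ on the minus strand at chr7:45305081-45305204, and its last bases in capitals are the AG of the splice acceptor that the coding transcript uses.
Trpm4 retained intron: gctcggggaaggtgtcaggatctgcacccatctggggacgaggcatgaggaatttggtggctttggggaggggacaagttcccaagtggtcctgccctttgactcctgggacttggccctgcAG
This transcript stood at 11.9, 24.2 and 29.7 FPKM in cold water 1 to 3 and at 26.2, 13.6 and 21.0 FPKM in control 1 to 3. Its groups overlapped, and its log2 difference of 0.15 did not pass (edgeR adjusted p = 1.00 over 21041 transcripts, of which 0.0285% were called). In scaled counts 0 of the 6 TRP transcripts tested had groups without overlap, where 11.1% of all tested transcripts did. In FPKM, though not in scaled counts, the coding transcript ENSMUST00000042194 had groups without overlap. It stood at 17.3, 15.12 and 19.65 FPKM in cold water 1 to 3 and at 4.54, 13.52 and 14.4 FPKM in control 1 to 3. The share of all transcripts without overlap in FPKM was not counted. In scaled counts its lowest cold water value, 72.0 CPM, lay below its highest control value, 74.4 CPM, for ENSMUST00000042194.

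A different coding transcript of Trpm4 led in 1 library. ENSMUST00000042194 held 83.6, 71.0 and 73.6% of the gene's estimated counts in cold water 1 to 3, and 20.6, 79.9 and 73.6% in control 1 to 3. In control 1 the transcript ENSMUST00000211743, with 23 exons, held 56.4%. It had 4338 estimated counts there and 0 to 9 in each of the other 5 libraries. The coding transcripts together stood at 18.8 FPKM in control 1, within the range of 13.6 to 19.7 FPKM over all libraries. Counts of single transcripts are estimates from coverage, and how reads were assigned between these transcripts was not tested. Exons 3 and 4 of ENSMUST00000042194 are absent from ENSMUST00000211743, whose coding sequence has 3198 bases against 3639, and are shown because they are part of the sequence on which the transcripts can be told apart. They lie at chr7:45327721-45327895 and chr7:45327272-45327452 on GRCm38, minus strand, and are read from the GENCODE M21 transcripts with no part in capitals since the whole of each exon differs.
Trpm4 exon 3: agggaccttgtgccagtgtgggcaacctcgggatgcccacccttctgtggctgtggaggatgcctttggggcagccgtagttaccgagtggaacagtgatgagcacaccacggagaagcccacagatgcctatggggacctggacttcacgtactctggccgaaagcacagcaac
Trpm4 exon 4: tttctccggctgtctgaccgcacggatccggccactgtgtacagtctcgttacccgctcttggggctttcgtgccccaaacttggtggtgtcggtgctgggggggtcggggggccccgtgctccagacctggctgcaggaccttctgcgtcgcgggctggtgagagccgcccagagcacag
The log2 difference was 0.69 with a standard error of 0.48 for ENSMUST00000042194 (edgeR adjusted p = 0.978). For ENSMUST00000211743 it was -8.02 with a standard error of 3.76 (edgeR adjusted p = 0.960), a value that rests on control 1. Without control 1 the log2 difference of ENSMUST00000042194 was 0.32. The remaining Trpm4 transcripts above 1 FPKM were ENSMUST00000209239 (retained intron, 1.26 FPKM, log2 difference 0.68) and ENSMUST00000210541 (a nonsense-mediated decay transcript, 1.15 FPKM, log2 difference 0.92), and neither passed.

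A ribosomal protein pseudogene shares the Trpm4 locus. Rpl14-ps1 lies in an intron of Trpm4 on the opposite strand, at chr7:45324965-45325617, and took 33.1% of the counts of the locus. The sources used here do not say whether reads keep their strand, so those from this interval cannot be assigned with certainty. Its level was 49.1 to 89.4 FPKM in the cold water libraries and 56.3 to 76.5 FPKM in controls, with a log2 difference of 0.014 (edgeR adjusted p = 0.995). Of the other members, 4 share their span with genes that each took under 1% of the locus or had no counts, and 5 had no overlapping gene in the table.

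Trpm7, a magnesium-, zinc- and calcium-permeable channel with a kinase domain that cells of many tissues need to grow, lies on the minus strand at chr2:126791565-126876230. Its level was 8.11, 5.96 and 4.98 FPKM in cold water 1 to 3 and 4.17, 5.72 and 3.47 FPKM in control 1 to 3. The highest value was in cold water 1 and the lowest in control 3, and control 2 lay above cold water 3. In scaled counts it stood at 28.8 ± 5.41 CPM in the cold water group and 23.5 ± 3.57 CPM in controls (SD, n = 3). The log2 difference was 0.30 with a standard error of 0.20 (edgeR adjusted p = 0.884), and the 95% interval ran from 0.887-fold to 1.70-fold. It was 0.15 without cold water 1 and 0.089 when only coding transcripts were summed.

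The coding transcript ENSMUST00000103224 carried most Trpm7 counts in every library, at 72.5, 61.1 and 63.0% in cold water 1 to 3 and 89.2, 68.1 and 74.2% in control 1 to 3. Its log2 difference was 0.085 with a standard error of 0.31 (edgeR adjusted p = 1.00). A second coding transcript, ENSMUST00000028843, had 174, 0 and 312 estimated counts in cold water 1 to 3 and 0, 408 and 0 in control 1 to 3. Its estimated count was thus above 0 in 3 libraries from both groups and 0 in the other 3. Its coding sequence has 5586 bases against 5589. Part of the difference between the transcripts is shown by exon 29 of ENSMUST00000103224, at chr2:126805017-126805087 (GRCm38, minus strand, GENCODE M21), in which the capitals mark the CAG that ENSMUST00000028843 lacks.
Trpm7 exon 29: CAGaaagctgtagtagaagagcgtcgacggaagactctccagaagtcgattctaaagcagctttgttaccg

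Retained-intron transcripts of Trpm7 stood higher in the cold water libraries, in values singled out after they were seen. Summed over the gene's 7 transcripts of that class they stood at 7.80, 9.33 and 5.61 CPM in cold water 1 to 3 and at 2.65, 3.52 and 5.06 CPM in control 1 to 3. The groups did not overlap, as for 7.39% of the 6822 genes with retained-intron counts, while 3.9% were lower without overlap. As a share of the gene's counts the class held 21.6, 38.8 and 19.9% in cold water and 10.8, 12.7 and 25.8% in controls, and here the groups overlapped. Single transcripts of the class were below 1 FPKM and were not tested. Of the 10 Trpm7 transcripts with counts, 3 had their lowest cold water value above their highest control value. Of all transcripts with a count, 4.82% were higher without overlap in this way and 3.1% were lower. The intron stretch kept by one of them, ENSMUST00000135733, is shown because it is the intronic sequence that this transcript adds to the spliced exons. It lies at chr2:126796994-126797110 (GRCm38, minus strand, GENCODE M21), and the capitals mark the GT of the splice donor at its start.
Trpm7 retained intron: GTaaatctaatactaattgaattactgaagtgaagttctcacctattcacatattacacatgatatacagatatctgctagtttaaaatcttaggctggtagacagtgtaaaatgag
ENSMUST00000135733 stood at 0.655, 0.657 and 0.613 CPM in cold water 1 to 3 and at 0.161, 0.327 and 0.442 CPM in control 1 to 3. ENSMUST00000127277, the most abundant of the class, stood at 4.53, 6.76 and 4.44 CPM and at 1.53, 1.32 and 4.16 CPM. Control 3 thus came close to the cold water libraries. The libraries were made from total RNA depleted of ribosomal RNA, in which unspliced transcripts are read as well. Retained-intron transcripts of all genes took 3.45 to 4.06% of the counts of a library, with the lowest share in control 3 and the highest in control 2. The part of unspliced RNA in these values was not tested.

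Trpv2, a channel that intense heat opens in sensory neurons and that macrophages, enteric neurons and muscle also use, stood close to the 1 FPKM line. Its level was 2.85, 1.92 and 0.356 FPKM in cold water 1 to 3 and 0.962, 2.21 and 0.308 FPKM in control 1 to 3. The values ran low in library 3 of each group and spanned 9.28-fold between the lowest and the highest library. In scaled counts Trpv2 stood at 4.20 ± 2.58 CPM in the cold water group and 2.84 ± 2.41 CPM in controls (SD, n = 3). The log2 difference was 0.56 with a standard error of 0.82 (edgeR adjusted p = 0.952), and the 95% interval, 0.383-fold to 5.70-fold, was wide. It was 0.080 without cold water 1, 0.056 without control 3 and 1.42 without control 2. The transcript ENSMUST00000151195, annotated as processed transcript with no coding sequence, held 57.1, 54.4 and 60.0% of the counts in cold water 1 to 3 and 40.8, 66.7 and 0% in control 1 to 3. The coding transcript ENSMUST00000018651 had a mean of 0.274 FPKM, so Trpv2 reached 1 FPKM only through transcripts that are not annotated as coding.

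**Figure D3:**
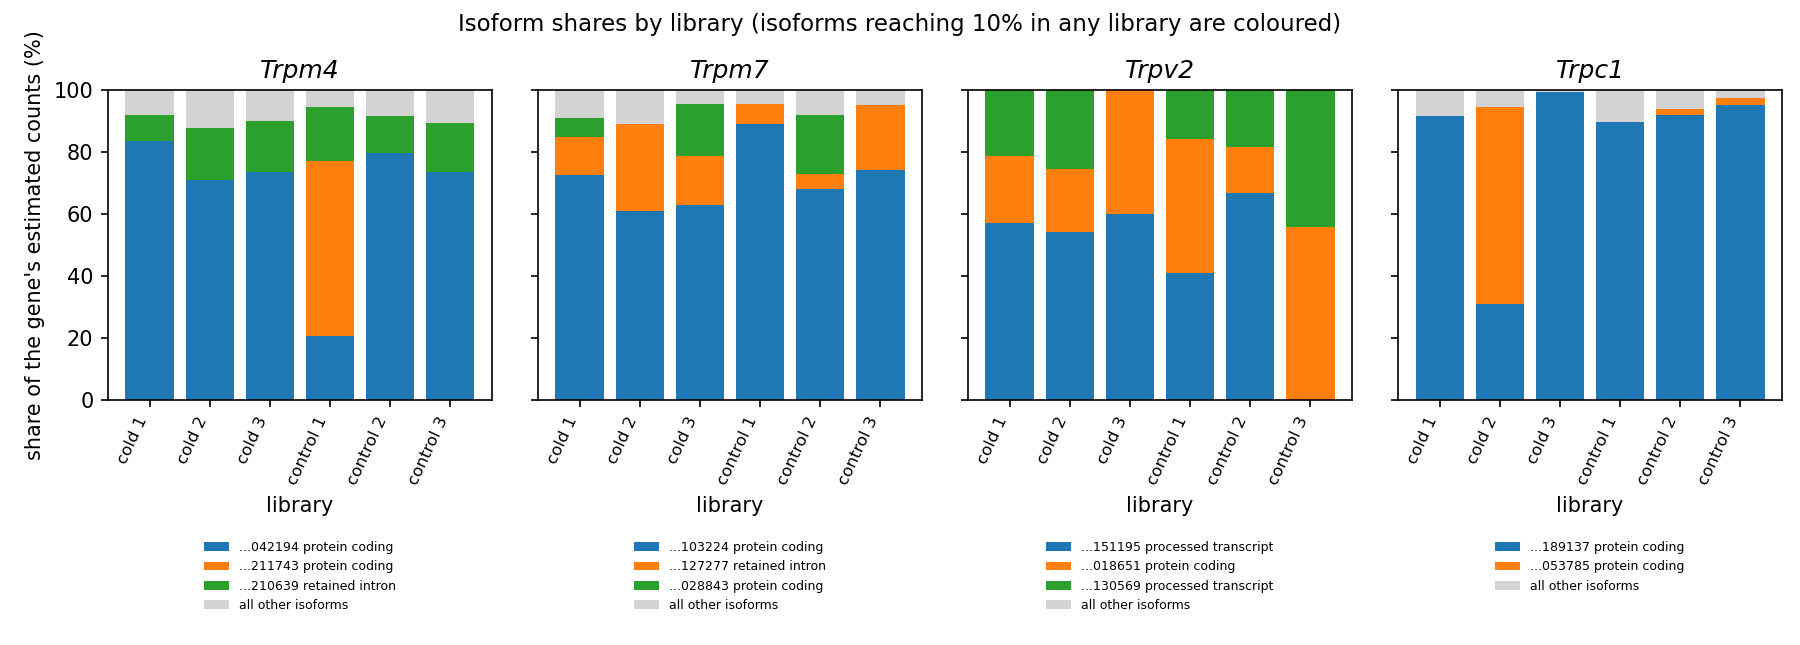
Share of each gene's estimated counts (vertical axis, percent) held by its transcripts in the 6 libraries for Trpm4, Trpm7, Trpv2 and Trpc1, with transcripts that reach 10% in any library in colour. The leading Trpm4 transcript held 71.0 to 83.6% in 5 libraries and 20.6% in control 1, and the leading Trpc1 transcript gave way to another in cold water 2.

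Trpa1 and Trpm8, the members linked to cold, were low or undetected. Trpa1 stood at 0.716, 0.880 and 0.385 FPKM in cold water 1 to 3 and at 0.742, 0.582 and 0.648 FPKM in control 1 to 3. The highest and the lowest value were both in cold water libraries, and the controls lay between them. The group means were 0.661 ± 0.252 FPKM and 0.657 ± 0.0807 FPKM (SD, n = 3). From 35 to 81 fragments per library stood behind them, all on 1 coding transcript, ENSMUST00000041447. In a fit with no filter on low values, which called 0.0105% of 28567 genes, the log2 difference of Trpa1 was -0.024 (standard error 0.36, edgeR adjusted p = 1.00), with a 95% interval of -0.86 to 0.81. The 4 transcripts of Trpm8 had no counts in any library. At these depths 3 fragments over its longest transcript (4146 bases) would have been 0.0315 to 0.0341 FPKM, which is the level a count of 0 allows, for counting error only.

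Marker genes of the cells in which Trpa1 and Trpm8 are known were measured beside them. The 7 enterochromaffin cell markers summed to 56.8 to 83.3 FPKM in the cold water group and 75.2 to 91.5 FPKM in controls, most of it from Chga and Chgb. The 9 sensory neuron markers summed to 8.89 to 20.7 FPKM and 8.72 to 24.1 FPKM, led by Tac1 (6.58 FPKM) and Prph (5.61 FPKM), which enteric neurons also make. Scn10a, a sodium channel of pain-sensing neurons, had a mean of 0.0241 FPKM. The cell bodies of those neurons lie outside the gut wall. In bulk tissue, fewer cells of a type and less RNA per cell cannot be told apart.

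The heat- and warmth-linked members below 1 FPKM also overlapped between the groups. Trpm2, which ADP-ribose and oxidative stress open and which immune cells carry, stood at 1.37, 0.317 and 0.624 FPKM in cold water 1 to 3 and at 0.402, 0.505 and 0.155 FPKM in control 1 to 3. Cold water 1 was the highest and control 3 the lowest, with means of 0.772 ± 0.544 FPKM and 0.354 ± 0.180 FPKM (SD, n = 3). In the fit with no filter the log2 difference was 0.65 with a 95% interval of -0.38 to 1.67 (edgeR adjusted p = 0.809). Without cold water 1, the difference between the means was 0.117 FPKM against 0.418 FPKM with it. Retained-intron transcripts held 62.2, 22.2 and 79.9% of its counts in cold water and 33.6, 33.6 and 0% in controls, which left 0.216 FPKM to coding transcripts. Of the retained-intron transcripts, ENSMUST00000138238 had groups without overlap, as 4.82% of transcripts with a count did in this direction. It stood at 0.779, 0.279 and 0.490 CPM in cold water 1 to 3 and at 0.0536, 0.144 and 0 CPM in control 1 to 3. It lay below 1 FPKM and was not tested. Trpv4, opened by warmth, swelling and stretch, stood at 0.554, 0.402 and 0.202 FPKM in cold water and at 0.313, 0.331 and 0.251 FPKM in controls. Both its highest and its lowest value came from cold water libraries, and the log2 difference was 0.34 with an interval of -0.64 to 1.33. Trpv1, the capsaicin receptor, was detected in 4 libraries, at 0.0966 FPKM in cold water 2 and at 0.121, 0.0559 and 0.0344 FPKM in control 1 to 3. It was listed at 0 in the other 2, and no library had more than 9 fragments.

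Trpm6, the channel-kinase of magnesium uptake in the distal gut and kidney, was lower in mean in cold water without passing the test. It stood at 0.0534, 0.0355 and 0.0700 FPKM in cold water 1 to 3 and at 0.125, 0.0393 and 0.116 FPKM in control 1 to 3. Control 1 and 3 were the highest, and control 2 lay among the cold water libraries. The log2 difference in the fit with no filter was -0.82 with a 95% interval of -2.35 to 0.71 (edgeR adjusted p = 0.819), from 5 to 18 fragments per library.

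Trpc1, a subunit of channels that open after receptor signalling or when calcium stores empty, had the largest ratio of the highest to the lowest library among the 8 members with counts in all of them, whereas relative to the mean the SD was larger for Trpm2 and Trpv2. It stood at 0.412, 0.933 and 0.403 FPKM in cold water 1 to 3 and at 0.535, 1.21 and 0.105 FPKM in control 1 to 3. Library 2 of each group was the highest, and the extremes, both in controls, were 11.5-fold apart. The log2 difference in the fit with no filter was 0.080 with a 95% interval of -1.40 to 1.56 (edgeR adjusted p = 1.00). In 5 libraries the coding transcript ENSMUST00000189137 held most of the counts, whereas in cold water 2 another coding transcript, ENSMUST00000053785, held 63.7%, with 156 estimated counts there and 0 to 7 elsewhere. Exon 3 of ENSMUST00000189137 is shown because it is absent from ENSMUST00000053785, whose coding sequence has 2325 bases against 2427. It lies at chr9:95736820-95736921 (GRCm38, minus strand, GENCODE M21), and no part is in capitals since the whole exon differs.
Trpc1 exon 3: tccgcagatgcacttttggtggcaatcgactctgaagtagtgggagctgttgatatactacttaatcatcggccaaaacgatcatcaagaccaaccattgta
Among the 8 members with counts in all 6 libraries, the leading transcript differed among libraries for 4 (Trpm4, Trpv2, Trpm2 and Trpc1). Over all 10583 genes with at least 2 transcripts that was so for 35.5%. Whether such differences lie in the RNA or in the assignment of reads to transcripts was not tested.

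Across libraries of both groups, the levels of some TRP genes ran in parallel with markers of single cell types, and the 4 relations of largest Pearson's r on the log2 scale are given, with log2(FPKM + 0.1) of the gene and log2 of the marker sum. The 8 smooth muscle markers, led by Acta2 and Actg2, summed to 879, 1413 and 354 FPKM in cold water 1 to 3 and to 722, 1733 and 179 FPKM in control 1 to 3. Trpc1 followed a similar order, highest in control 2 and lowest in control 3. Over the 6 libraries Pearson's r of Trpc1 with this sum was 0.945 (exact permutation p = 0.00417, adjusted p = 0.113). Spearman's rho was 0.943 (exact permutation p = 0.0167, adjusted p = 0.225). Without cold water 3 and control 3, the libraries farthest from the median of the log2 marker sum, r was 0.919. For Trpv2 and smooth muscle, r was 0.900 (exact permutation p = 0.0208, adjusted p = 0.178) and rho 0.829 (exact permutation p = 0.0583, adjusted p = 0.394), but r was 0.467 without the same libraries, on which the relation thus rests. With the macrophage sum, Trpv2 had an r of 0.696 (exact permutation p = 0.0722, adjusted p = 0.279) and a rho of 0.943 (exact permutation p = 0.0167, adjusted p = 0.225), and r was 0.588 without cold water 1 and control 2. With the same sum r was larger for Trpv4, at 0.81, and for Trpm7, at 0.80. Both had an adjusted p of 0.206 by the exact permutation test. Without cold water 1 and control 2, r was 0.42 for Trpv4 and 0.25 for Trpm7.

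Trpm2 was highest in cold water 1, the library with the highest macrophage sum, led by Lyz2 and C1qa. Its r with that sum was 0.854 (exact permutation p = 0.0264, adjusted p = 0.178) and rho 0.657 (exact permutation p = 0.175, adjusted p = 0.430), and r was 0.490 without cold water 1 and control 2. Trpm4 followed the enterocyte sum, which was highest in cold water 3 and lowest in control 2, as Trpm4 was. Here r was 0.915 (exact permutation p = 0.0167, adjusted p = 0.178) and rho 0.829 (exact permutation p = 0.0583, adjusted p = 0.394), and r was 0.615 without cold water 1 and control 2. Adjustment was over 27 relations (9 members and 3 marker sums), chosen after their values were seen, and none passed 0.05. On linear FPKM, tried after seeing the data, r was 0.961 for Trpc1, 0.746 for Trpv2 with smooth muscle, 0.942 for Trpm2 and 0.904 for Trpm4, and again none of the 27 passed (lowest adjusted p = 0.113, exact permutation test). Without the 2 libraries farthest on that scale, r was 0.875, 0.631, 0.329 and 0.667. Their part in the group differences was not tested.

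**Figure D4:**
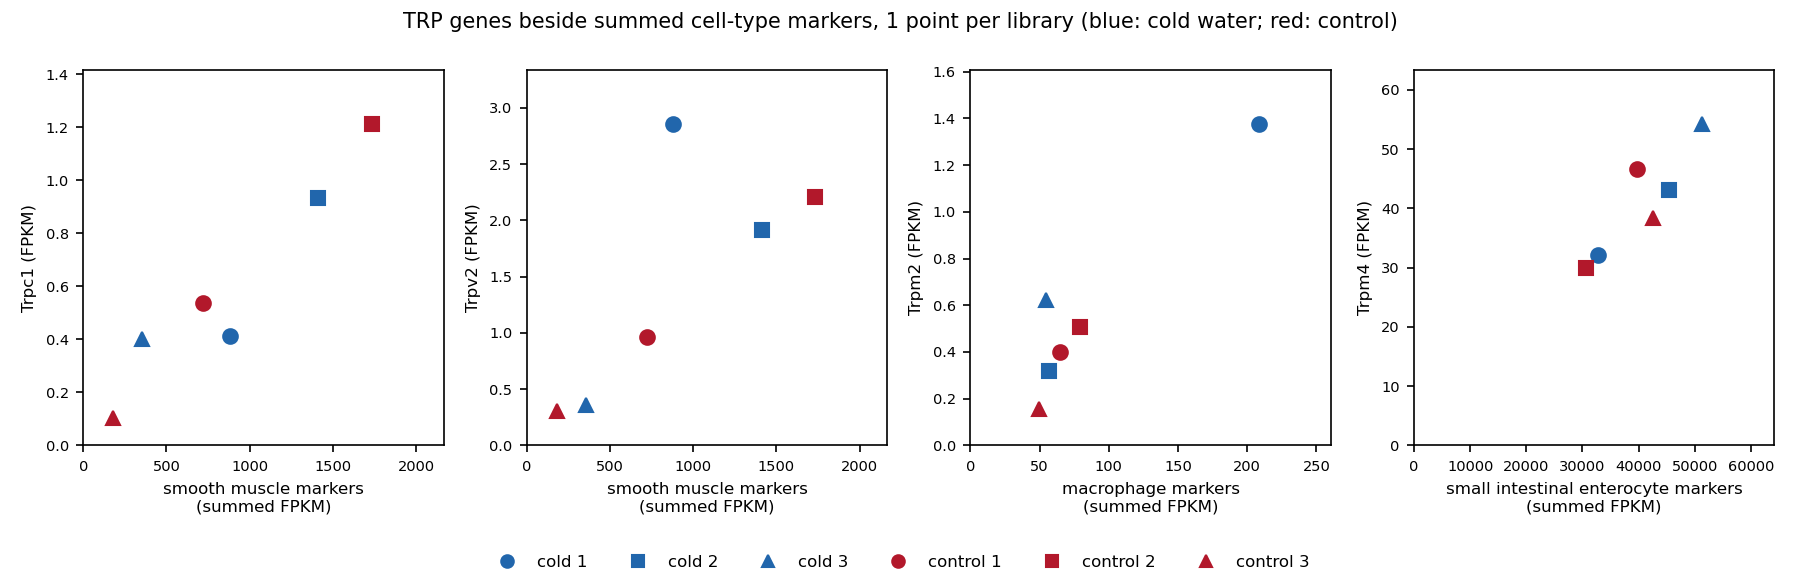
FPKM of 4 TRP genes (vertical axes) against the summed FPKM of a marker list (horizontal axes), 1 point per library, cold water in blue and control in red. Trpc1 and the smooth muscle sum are both lowest in control 3 and highest in control 2, Trpm2 is highest in cold water 1 with its macrophage sum of 208 FPKM, and Trpm4 and the enterocyte sum are both highest in cold water 3.

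By Pearson's r of log2 CPM over the 6 libraries, the tested genes most like Trpm4 were Gm8172 (0.993) and Gm49759 (0.991). Those most like Trpm7 were Rrnad1 (0.996) and Fam43a (0.985), and those most like Trpv2 were Camkk2 (0.995) and Frmd4a (0.994). An r above 0.9 with these members was found for 260, 132 and 564 of 12938 genes.

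Genes related to TRP channels were counted in 7 lists of 109 genes in all. Of 70 that reached 1 FPKM, 0 passed edgeR's adjusted threshold, 0 were called by DESeq2 or limma, and 2 had an unadjusted edgeR p under 0.05, as 5.01% of all tested genes did. Among 18 other TRP genes, 6 were tested, 3 higher and 3 lower in cold water (median log2 difference 0.025), and Trpc2 and Trpv5 were at 0 in all libraries. Mcoln3, a calcium channel of endosomes and lysosomes, stood at 1.86, 4.66 and 4.45 FPKM in cold water 1 to 3 and at 1.53, 1.11 and 1.63 FPKM in control 1 to 3. These groups did not overlap, as for 9.44% of tested genes. In scaled counts Mcoln3 did overlap, with a lowest cold water value of 5.03 CPM and a highest control value of 5.48 CPM. Its log2 difference was 1.14 with a standard error of 0.41 (edgeR adjusted p = 0.878). Trpm5, the taste-type channel of tuft cells, had a mean of 4.16 FPKM and a log2 difference of 0.22, which was 0.057 without cold water 3 and 0.078 without control 2.

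Receptor and Gq-phospholipase C genes, whose products open or sensitise TRP channels, had 21 of 28 tested, 13 higher and 8 lower, with a median of 0.063. Plcb2, the phospholipase C of taste and tuft cells, stood at 4.83 ± 2.03 CPM in the cold water group and 2.44 ± 0.309 CPM in controls (SD, n = 3), with a log2 difference of 0.99 (edgeR adjusted p = 0.878). In FPKM its groups overlapped, at 2.73, 1.20 and 0.629 FPKM in cold water 1 to 3 and 0.607, 0.890 and 0.468 FPKM in control 1 to 3. Cold water 1, which also had the highest macrophage sum and B cell and plasma cell sum, was the highest, and without it Plcb2 fell below the level tested. The 9 tuft cell markers summed to 44.7 ± 3.81 FPKM in cold water and 45.3 ± 6.90 FPKM in controls (SD, n = 3). Itpr2, a calcium release channel, differed by 0.42. Store-operated calcium entry genes (7 of 8 tested, 5 higher, median 0.16) had the channel subunit Orai2 at 0.45, which was 0.12 without cold water 1 and 0.24 without control 3, and the regulator Saraf at -0.22.

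Magnesium and zinc transport genes, the setting of Trpm6 and Trpm7, had 19 of 23 tested, 13 higher, with a median of 0.12. The metal exporter Slc30a10 differed by 0.64 and the zinc importer Slc39a5 by -0.37. Genes of ADP-ribose and NAD, upstream of Trpm2, had all 9 tested, 4 higher, with a median of -0.090, Parp2 at 0.26 and Nampt at -0.30. Other temperature- or touch-sensitive channels had 6 of 18 tested, 4 higher, with a median of 0.058. Piezo1, a channel opened by stretch, differed by 0.45 (0.89 without control 2, 0.12 without control 3) and Tmem63b by 0.24 (0.036 without cold water 3), and the potassium channel gene Kcnk18 was at 0. A list set beside Trpm4, of sulfonylurea receptor genes, potassium channel subunits, Plcb2 and Gnat3, had 3 of 6 tested, with a median of -0.0012. The 1 higher gene was Plcb2, also counted above, and the potassium channel subunit Kcnj8 was at -0.15. None of the genes named from these lists passed the test.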

How the data were processed

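Total RNA depleted of ribosomal RNA was sequenced from both ends, per the labels' protocols. StringTie 1.3.4d, HISAT2 2.0.4, cutadapt 1.9 and FastQC 0.10.1 are named, with edgeR and DESeq2, in the submitters' processing notes. What each was used for, and the genome build, is not given in the sources used here. Per the file headers, the authors gave FPKM for each transcript and library. Values of 0.0001 FPKM at a count of 0 were read as 0. The second deposited value is an estimated count per transcript, per the file headers. For 100% of values (tolerance 0.02) it equalled FPKM times length and a library constant after rounding up, so counts are estimates from coverage. Intervals of log2 differences are from edgeR and cover the spread between libraries, whereas the limit given for a count of 0 covers counting error only. A fragment was taken as the step at which low counts gather.

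Both values were summed by gene symbol. The 12939 genes and 21041 transcripts that reach a mean of 1 FPKM were tested in edgeR 4.0.16 (R 4.3.3) by the quasi-likelihood test with TMM scaling, group as the sole term, and Benjamini-Hochberg adjustment at 0.05 over all features. Members below 1 FPKM are read from a fit of all 28567 genes with a count. Alternatives used DESeq2 1.42.0 and limma 3.58.1. The script was tested on simulated data. Members and lists were chosen with earlier results of these data known. The rule for names took all members, their transcripts that reach 1 FPKM or lead their gene, the 2 genes of smallest p in each list, the 2 most abundant markers and those at 0, 2 genes of like pattern, and overlapping genes above 10% of a locus. Other names, such as Trpc1, Trpm2 and Trpm7 transcripts, Trpv2 coding RNA and Scn10a, were chosen after their values were seen. Sequences and exon positions are from GENCODE M21 (GRCm38), in which the 10 transcripts used had the lengths and ends of the deposited table.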

Additional observations from a re-analysis of the deposited data

How the results depend on the processing

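No TRP gene, no TRP transcript, no gene of the related lists and no neighbour pair passed under any alternative run. For neighbour pairs this carries little weight, because of the smallest p that 6 libraries allow. The count of all genes called was 5 with edgeR. It was 71 with DESeq2, 2 with a filter at 0.1 FPKM or with coding transcripts only, and 3 with filterByExpr, no filter, no scaling, or limma on log2(FPKM + 0.1) or log2(FPKM + 1). It was 0 with the replicate number as a block and 0 to 1 with 1 library left out. The count of all transcripts called was 6 with edgeR, 585 with DESeq2, 3 at 0.1 FPKM or with filterByExpr, 22 and 23 with limma on log2(FPKM + 0.1) and log2(FPKM + 1), 0 with no filter, 2 with no scaling, 0 with the block and 0 to 10 with 1 library left out. The cause of these differences was not tested. Same-numbered libraries correlated at -0.0061, 0.24 and 0.44 in their deviations from the group means at gene level. Cold water 2 and 3 correlated best with the control of the same number. Cold water 1 correlated best with control 2 (0.19), and the numbers were not taken as pairs.

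Across the alternatives the log2 difference ran from 0.0066 to 0.38 for Trpm4, 0.089 to 0.50 for Trpm7 and 0.056 to 1.42 for Trpv2, with the block at 0.80 for Trpv2. With the block the standard error of Trpv2 was 0.43, against 0.82 in the main fit (edgeR adjusted p = 0.804 with the block). Trpv2 had no value with coding transcripts only, since it fell below 1 FPKM. With 1 library left out, Orai2 ran from 0.12 to 0.67, Parp2 from 0.15 to 0.36, Slc30a10 from 0.47 to 0.90, Nampt from -0.48 to -0.14, Slc39a5 from -0.50 to -0.23 and Saraf from -0.36 to -0.12, and coding transcripts only gave 0.97 for Parp2 and 1.31 for Slc30a10. Some directions turned, for Trpa1 and Trpc1 (mean FPKM) as given above and for these. The Trpm4 transcript ENSMUST00000210639 ran from -0.22 to 0.47 with 1 library left out (-0.22 without cold water 3, -0.10 without control 2). The Trpm7 transcript ENSMUST00000103224 ran from -0.18 to 0.25 (-0.18 without cold water 1, -0.067 without control 3), and Kcnj8 from -0.96 to 0.47. Saraf was at 0.48 with coding transcripts only. The order of levels, with coding transcripts only or a pseudocount of 0.01, was tried after seeing the data. With coding transcripts only, Trpv2 stood below Trpa1, Trpc1 and Trpv4. Depth limits the low members, with 0 fragments for Trpm8 and at most 9 and 18 in a library for Trpv1 and Trpm6.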
